A study of Mus musculus with 2 samples.

Results

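The clustered histone genes are the genes whose symbol begins with Hist1h, Hist2h, Hist3h or Hist4, and 67 of the 32287 genes in the count table met that rule. They comprise 54 genes of the Hist1 cluster on chromosome 13, 10 of Hist2 on chromosome 3, 2 of Hist3 on chromosome 11 and 1 of Hist4 on chromosome 6 (mouse build mm10). By product they are 6 linker H1, 18 H2A, 18 H2B, 12 H3 and 13 H4 genes. The study measured RNA in single cells of primary cultures from the walls of the lateral ventricles of newborn mice (P0-P2), in which progenitors turn into ependymal cells, whose many motile cilia move the fluid of the brain. The mice of replicate 1 were C57BL/6N and those of replicate 2 C57BL/6J, with no other allele or agent named for either. The cultures were grown in serum to confluence, shaken overnight to remove other cells, and collected by trypsin 2 days after serum was withdrawn. Cells were tagged on surface proteins and made into droplet libraries with a 3′ chemistry, which primes on poly(A).

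Core histones H2A, H2B, H3 and H4 form the protein spool of the nucleosome, and linker H1 binds the DNA between nucleosomes. The messages of most clustered genes are made when DNA replicates, and end in a short stem-loop bound by the protein SLBP in place of a poly(A) tail. Some of the same genes also make polyadenylated messages in cells that have stopped dividing, by using a signal further downstream. Capture on poly(A) favours polyadenylated forms, so the levels here describe captured transcripts and not the whole pool of histone message.

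The stem-loops are printed because they mark the end of the replication-dependent message, beyond which a polyadenylated form extends. They were read on the coding strand from GENCODE vM21 transcripts, are written 5′ to 3′ in DNA letters, and carry in capitals the 16-base inverted repeat of a 6-base stem and a 4-base loop.
Hist1h1c: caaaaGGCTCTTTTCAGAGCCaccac
Hist1h1e: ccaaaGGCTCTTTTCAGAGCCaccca
Hist1h2ae: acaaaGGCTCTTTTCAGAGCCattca
Hist1h2be: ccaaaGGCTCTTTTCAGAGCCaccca
Hist3h2ba: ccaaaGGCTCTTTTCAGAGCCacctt
Hist1h4i: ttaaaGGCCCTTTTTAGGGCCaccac
Hist1h3c: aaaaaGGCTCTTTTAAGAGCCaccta
The first 5 share one 16-base core, which 26 members carry, whereas Hist1h4i and Hist1h3c differ in the stem or the loop. An inverted repeat of this form was found after the coding part in annotated transcripts of 46 members. One occurred anywhere in 457 of 58797 coding transcripts searched (0.777%), a count of transcripts rather than genes that includes those of members. In 23 of the 46 the annotated transcript ran at least 100 bases past the stem-loop. Of those printed, that was so for Hist1h1c (840 bases after it), Hist1h1e (1153 bases), Hist1h2ae (151 bases) and Hist1h2be (1861 bases). It also held for Hist3h2ba (169 bases) and Hist1h4i (330 bases), but not for Hist1h3c (74 bases).

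Captured transcripts were spread very unevenly over the family. The members held 242537 of 244122881 UMIs (unique molecular identifiers, each counting 1 captured transcript), and 65 members had at least 1 UMI, 42 at least 100 and 17 at least 1000. Hist1h2bc, an H2B gene of 2 exons at chr13:23684199-23692908 on the plus strand, held 103650 UMIs, or 42.7% of the total. The linker genes Hist1h1c (38567 UMIs), Hist1h1e (21307) and Hist1h1b (21288) followed, and then the H2A gene Hist3h2a (10883) and the H4 gene Hist1h4i (10494). H2B genes together held 47.6% of member UMIs, H1 genes 35.6%, H4 genes 7.74%, H2A genes 7.34% and H3 genes 1.72%. The 23 members annotated well past the stem-loop held 44.2% of member UMIs, the 23 whose annotation ended under 100 bases past it held 2.76%, and the 21 with no stem-loop in the annotation, among them Hist1h2bc and Hist1h1b, held 53.0%. For 13 of these 21 members, Hist1h1b among them, the annotated transcript has no 3′ UTR, so a stem-loop could not be looked for. This class thus reflects in part where the annotation ends. Hist2h2aa2 and Hist1h2ba had no UMI.

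**Figure D1:**
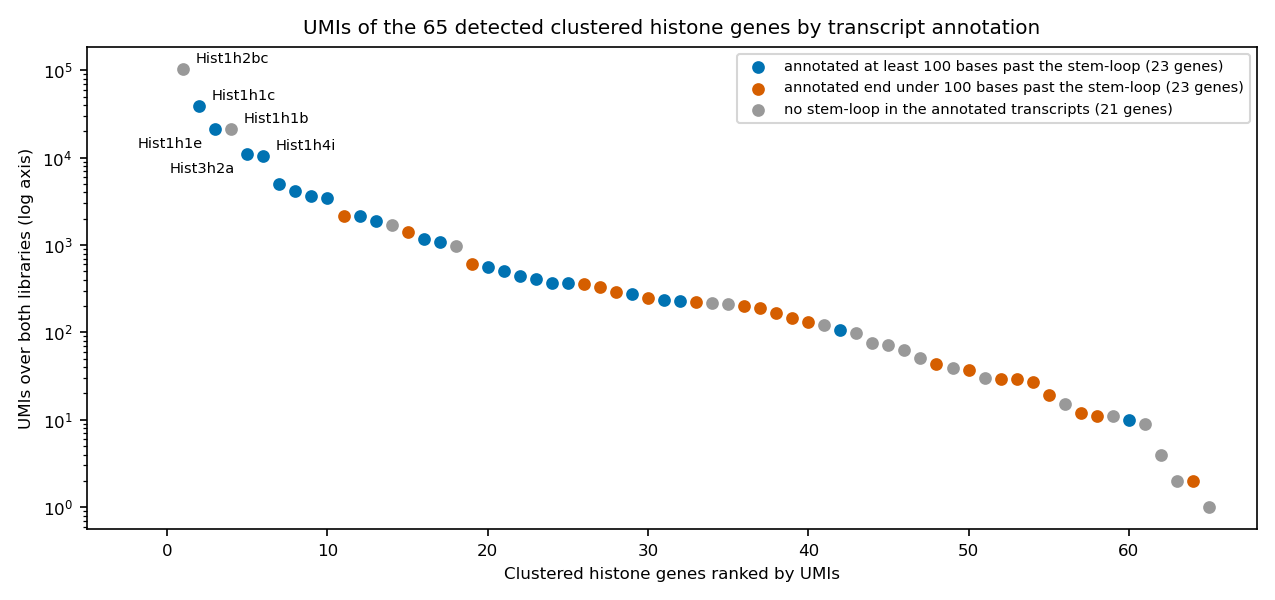
Total UMIs of each of the 65 detected clustered histone genes over both libraries (log axis), ranked from highest to lowest and coloured by where the annotated transcript ends relative to the stem-loop. Hist1h2bc stands first with 103650 UMIs, and the members whose annotation ends under 100 bases past the stem-loop reach at most 2166.

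Many members resemble one another, which limits how far single genes can be told apart. In GENCODE transcripts 59 members shared at least 1 stretch of 60 bases with another member, and 29 shared most of theirs. Hist1h2ap shared 92.9% of its stretches, Hist2h3c2 63.2% and Hist1h1e 30.6%, whereas Hist1h1a and Hist1h1b shared none. Another gene overlapped 7 members on the same strand, which includes Hist1h1e with Hist1h2be and Hist3h2a with Trim17, so UMIs of these pairs may be split or lost between them.

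Replicate 1 held 12028 cells and 173510950 UMIs, and replicate 2 held 4373 cells and 70611931 UMIs, with 13 cell barcodes found in both. The authors' cell table gives each cell 1 of 14 populations and 1 of 5 cell cycle classes (G0, G1, S, S/G2 and G2/M). The marker lists of multiciliated cells, neuroblasts, oligodendrocyte precursors (OPCs), oligodendrocytes, microglia and fibroblasts were each higher in the named population than in any other in both libraries. The list for progenitors and astroglia did not separate them, since it summed to 2902 to 4928 CPM (the count of a gene over all UMIs of the same cells, scaled to 1e6) in progenitor populations and to 3260 CPM in OPCs of replicate 1. The libraries also differed in members: Hist1h1e was higher in replicate 2 in 13 of 13 populations and Hist1h1b in 12, whereas Hist1h2bc was lower there in 12. With 1 library per substrain, substrain and library cannot be told apart. The labels do not say whether the replicates were separate cultures or litters. The p-values measure only how far populations or classes departed from the overall difference between these 2 libraries, pooled over all sets fitted.

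The linker genes differed in how they varied over populations. Hist1h1b (chr13:21779883-21780625, minus strand) stood at 506 and 756 CPM in cycling progenitors of replicates 1 and 2. It stood at 19.0 and 31.0 CPM in progenitors I, and at 22.1 and 41.1 CPM in multiciliated cells. Its highest levels were in OPCs, 722 and 2764 CPM, and in neuroblasts, 736 and 2096 CPM. Hist1h1c (chr13:23738808-23740367, plus strand) varied less, from 48.7 and 60.7 CPM in mid deuterosomal cells, which build centrioles, to a highest level of 249.9 CPM in oligodendrocytes of replicate 1 and 318 CPM in neuroblasts of replicate 2, and stood at 221 and 229 CPM in multiciliated cells. Hist1h1a, at chr13:23763666-23764406, stood at 42.8 and 58.7 CPM in cycling progenitors and at 1.37 and 2.71 CPM in multiciliated cells. The cycling and resting levels of Hist1h1b and Hist1h1a did not overlap between libraries, whereas those of Hist1h1c did.

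Among the core histones, Hist1h2bc and Hist1h4i, the H2B and H4 genes with most UMIs, stood higher in multiciliated cells than in cycling progenitors. Hist1h2bc stood at 417 and 296 CPM in cycling progenitors, at 483 and 341 CPM in progenitors I and at 601 and 521 CPM in multiciliated cells. Hist1h4i (chr13:22040636-22041362, minus strand) stood at 47.5 and 30.2 CPM in cycling progenitors and at 75.7 and 63.4 CPM in multiciliated cells. The H2A gene Hist1h2ae (chr13:23570517-23571220, minus strand) went the other way, with 81.0 and 30.2 CPM in cycling progenitors and 3.26 and 1.88 CPM in multiciliated cells. Hist3h2ba, an H2B gene at chr11:58948920-58949533, was highest in neuroblasts and oligodendrocytes, at 389 and 310 CPM in neuroblasts and at 305 and 208 CPM in oligodendrocytes. In progenitors I it stood at 14.3 and 8.45 CPM, and in microglia at 8.85 and 4.33 CPM. Of the 20 members with most UMIs, 10 had their highest level in neuroblasts in replicate 1 and 10 in replicate 2, of which 5 did so in both. Neuroblasts held only 403704 and 757495 UMIs, against 9423426 and 4870782 in cycling progenitors. Some of these highest levels rest on few counts, as for Hist2h2be with 6 and 7 UMIs. The share of all genes highest in neuroblasts was not measured, so the count is a description only.

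**Figure D2:**
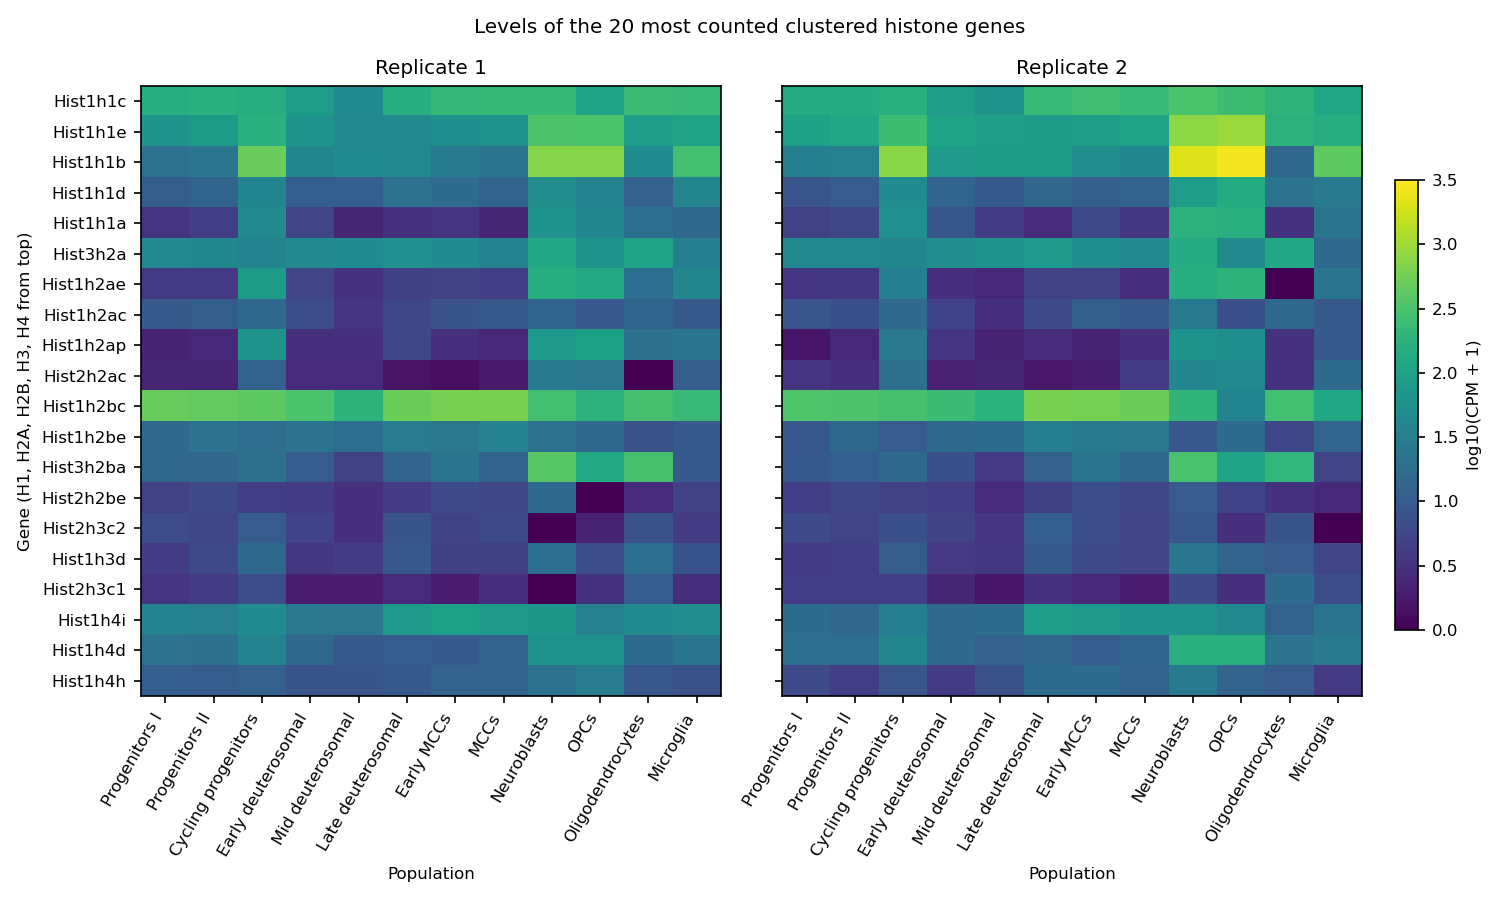
Level of the 20 members with most UMIs in 12 named populations, as log10(CPM + 1), with 1 panel for each library. Hist1h2bc is high in most populations in both panels, whereas Hist1h1b, Hist1h2ae and Hist1h1a are high in cycling progenitors, neuroblasts and OPCs.

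Members were sorted in replicate 1 alone by their own levels, and replicate 2 was then read. A member was called S-phase-linked when its level in S and S/G2 cells of the cycling progenitors was at least 2 times that in resting progenitors (progenitors I and II) and above that in multiciliated cells. The reverse, with multiciliated cells at 2 times resting progenitors, was called differentiation-linked. This gave 33 S-phase-linked members (4 H1, 7 H2A, 8 H2B, 10 H3 and 4 H4), 2 differentiation-linked members (Hist1h4i and Hist1h2bp), 14 in neither and 18 with under 20 UMIs. The share of all genes that meet these rules was not measured in either library, so the counts are a description only. In replicate 2, 32 of the 33 stood above resting progenitors, and 29 by at least 2-fold. Hist1h2br stood below, at 0.827 times, so its name rests on replicate 1 alone. It had more UMIs in late deuterosomal cells (41 and 31) than in cycling progenitors (8 and 3). Of the 33, 28 met both conditions of the rule in replicate 2. In multiciliated cells of replicate 2 Hist1h4i stood at 4.14 times resting progenitors and above cycling S and S/G2 cells. Hist1h2bp stood at 4.54 times there, but at 4.60 times in cycling S and S/G2 cells (2.71 against 2.75 CPM), so only 1 of the 2 met both conditions in replicate 2. Just inside the boundary in replicate 1 was Hist2h3c2 at 2.06 times, with 1.46 in replicate 2. Within cycling progenitors its log2 difference of S from G0 was -0.51 and -1.07, from 19 and 5 UMIs in S and 11 and 5 in G0. Its S-phase name thus rests on the contrast with resting progenitors. Hist2h3c1 and Hist1h4a, also named S-phase-linked, stood at 1.10 and 1.21 times in replicate 2. Just outside the boundary in replicate 1 were Hist1h4c at 1.91 (0.579 in replicate 2), Hist1h4n at 1.91 and Hist1h2ac at 1.90 times. On the multiciliated side Hist1h2be fell just outside at 1.98 times. Of 10 members listed from background as having polyadenylated forms in differentiated cells, 9 were among the 14 in neither class, 1 was differentiation-linked and 0 were S-phase-linked. This background list was not drawn from the annotation. Of the 23 members annotated at least 100 bases past the stem-loop, 12 were S-phase-linked, 1 was differentiation-linked and 9 were in neither class.

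Promoter letters are shown for 3 linker genes that differ in their pattern and for Hist1h4i, as the 120 bases before the RefSeq start on GRCm38.p6, written 5′ to 3′ on the gene's strand. Capitals mark CCAAT and TATAA, each searched on both strands.
Hist1h1b (chr13:21780626-21780745, minus): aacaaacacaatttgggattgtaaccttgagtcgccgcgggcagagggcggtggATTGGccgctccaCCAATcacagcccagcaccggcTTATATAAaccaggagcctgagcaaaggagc
Hist1h1a (chr13:23763548-23763667, plus): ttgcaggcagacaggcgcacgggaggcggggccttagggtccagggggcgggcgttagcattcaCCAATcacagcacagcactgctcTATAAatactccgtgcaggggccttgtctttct
Hist1h1c (chr13:23738687-23738806, plus): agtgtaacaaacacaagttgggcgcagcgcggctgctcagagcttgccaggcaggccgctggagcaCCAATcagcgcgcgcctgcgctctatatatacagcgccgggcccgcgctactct
Hist1h4i (chr13:22041363-22041482, minus): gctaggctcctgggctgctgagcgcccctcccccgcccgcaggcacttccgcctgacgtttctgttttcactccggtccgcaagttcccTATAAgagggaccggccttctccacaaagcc
Promoters of 61 members were matched in the RefSeq table (300 bases, both strands). CCAAT occurred in 52 of them (85.2%, against 37.9% of all 27025 promoters) and TATAA in 48 (78.7%, against 25.5%). ATTTGCA occurred in 13 (21.3%, against 3.98%), of which 7 were H2A and 6 were H2B promoters. CCAAT was in 3 of 12 H4 promoters and in every matched promoter of the other types. It was in 28 of 29 matched S-phase-linked promoters and in 8 of 12 of the members in neither class, so the letters were common to both. A match is a description of letters and not of a bound site.

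Cycling progenitors were compared with resting progenitors to show which members accompany division. Linker, H2A and H3 genes rose in the dividing population, among them Hist1h1e by 2.23-fold and Hist1h2ap by 37.0-fold. Of 51 members tested with edgeR's quasi-likelihood test (Benjamini-Hochberg adjustment over 15877 genes), 35 were higher and 0 lower, where 17.4% and 21.3% of all genes were higher and lower. The median log2 difference was 2.03 for members and -0.10 for all genes tested. By type, 4 of 5 H1, 10 of 12 H2A, 9 of 14 H2B, 9 of 10 H3 and 3 of 10 H4 genes were higher.

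The largest differences among well-covered members were in H2A and H1. Hist1h2ap stood at 64.5 and 23.8 CPM in cycling progenitors against 1.25 and 0.56 CPM in progenitors I, a log2 difference of 5.21 ± 0.21 (SE, adjusted p = 4e-16). Hist1h1b differed by 4.54 ± 0.26 (adjusted p = 1.2e-08), Hist1h2ae by 4.31 ± 0.26 (adjusted p = 1.7e-09) and Hist1h1a by 3.77 ± 0.20 (adjusted p = 1.6e-12). All 4 were higher in both libraries with no overlap. The H3 gene Hist1h3c had 55 and 29 UMIs in cycling progenitors against 2 and 1 in resting progenitors, which gives ratios of 141 (95% counting interval 37.3 to 1196) and 169 (28.1 to 6920). The linker gene Hist1h1e rose by a log2 of 1.16 ± 0.12, and its adjusted p was 0.0784 when the library was left out of the model. Hist1h2bc did not pass the test, at -0.24 (adjusted p = 0.49), except when only the compared populations were fitted (-0.16, adjusted p = 0.00112), nor did Hist1h1c, at -0.04 (adjusted p = 0.93). Of the 10 members on the background list of polyadenylated forms 1 was higher, against 34 of the other 41 tested.

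The share of cells with a Hist1h1b UMI showed the same order. After each cell was thinned to 5000 UMIs, with shallower cells left out (518 of 520 and 233 of 239 cycling progenitors kept), 56.6% (exact 95% interval 52.2 to 60.9) of cycling progenitors had one in replicate 1 and 58.4% (51.8 to 64.8) in replicate 2. In oligodendrocytes, of which 2 of 64 and 0 of 38 carried an S or S/G2 class, the share was 9.52% and 5.71%, and in progenitors I 7.85% and 12.4%. Before thinning the shares in cycling progenitors were 73.7% and 75.3%. Intervals cover counting error only.

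Within cycling progenitors the cell cycle classes separated the members further. Hist1h1b rose from 144 and 259 CPM in the G1 class to 566 and 830 CPM in S and stood at 779 and 1140 CPM in S/G2, with 39.8 and 98.4 CPM in G2/M. In S against G1, 8 of 41 members tested were higher and 0 lower, where 1.40% and 0.381% of 13634 genes were. They were Hist1h2ae (3.18 ± 0.44), Hist1h2ap, Hist1h2ac, Hist1h1a, Hist1h1b (1.80 ± 0.22), Hist1h2be, Hist1h4d and Hist1h1e (1.02 ± 0.15), on the log2 scale. Without the library term 5 of the 8 passed, and Hist1h1b (adjusted p = 0.439), Hist1h2be and Hist1h1e did not.

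Hist1h2bc and Hist1h1c ran differently over the classes. Hist1h2bc stood at 724 and 449 CPM in G0, 283 and 176 in G1, 242 and 233 in S, 488 and 320 in S/G2 and 625 and 730 in G2/M. Its level was thus lowest in G1 and S in both libraries. Hist1h1c stood at 67.2 and 87.9 CPM in S and at 223 and 254 CPM in G2/M. The G2/M class held 17 and 8 cells, under the minimum of 20, so S against G2/M was fitted only with the minimum lowered to 5, a choice made after the class sizes were seen. In that fit 6 of 25 members were higher in S and 2 lower, where 5.38% and 1.69% of all genes were. Hist1h1b was higher by 3.57 ± 0.56, whereas Hist1h2bc was lower by a log2 of -1.37 ± 0.28 (adjusted p = 6.9e-04).

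S against S/G2 was added after the class sizes were known. In S, 9 of 41 members were lower and 0 higher, where 5.13% and 4.34% of genes were. They included Hist1h1c (-1.44 ± 0.27), Hist3h2a (-1.04 ± 0.20), Hist1h1e (-0.87 ± 0.11) and Hist1h2bc (-0.78 ± 0.19). Without the library term 3 of the 9 passed.

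**Figure D3:**
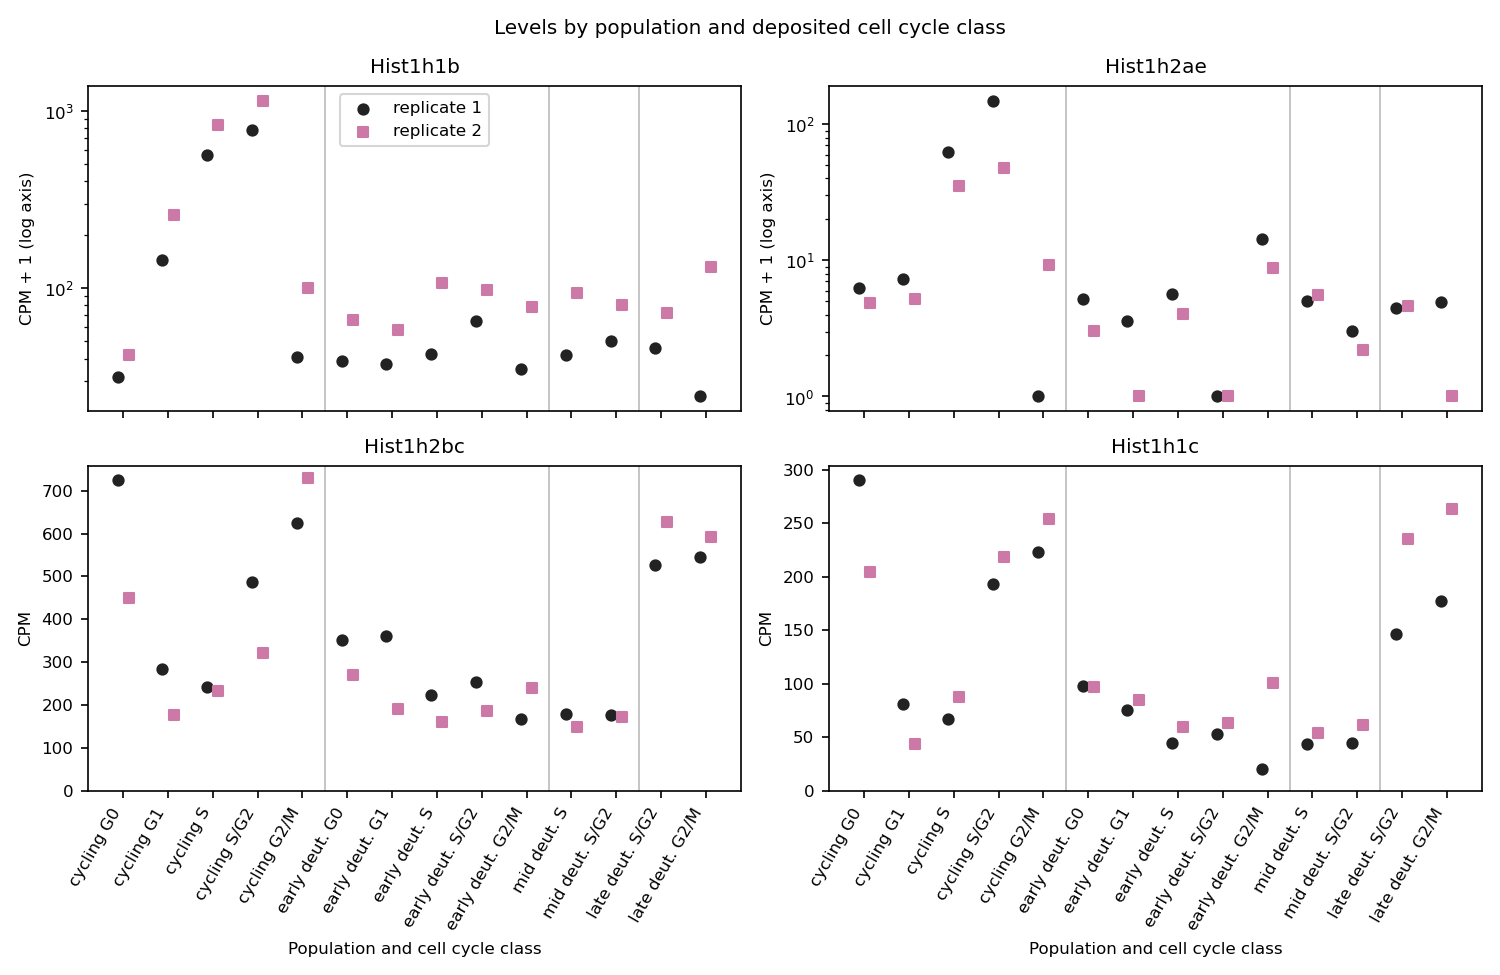
Level of Hist1h1b and Hist1h2ae (CPM + 1, log axis) and of Hist1h2bc and Hist1h1c (CPM, linear axis) by population and cell cycle class, with each library as its own points. Hist1h1b lies at 566 to 1140 CPM in the S and S/G2 classes of cycling progenitors and at 49.2 and 79.0 CPM in the S/G2 class of mid deuterosomal cells.

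Mid deuterosomal cells carried an S or S/G2 class in 93.9% and 95.8% of cells, and so were set against cycling progenitors, where the share was 63.5% and 60.7%. Members were much lower in the deuterosomal population. In mid deuterosomal against cycling cells 43 of 51 members were lower and 1 higher, where 28.6% and 34.4% of all genes were, and the median log2 difference was -2.40 for members and 0.07 for all genes. Hist1h2ae stood at 2.28 and 1.55 CPM against 81.0 and 30.2 CPM (-4.74 ± 0.38), Hist1h1a fell by 4.54 and Hist1h1b fell by 3.23 ± 0.33 on the log2 scale. Hist3h2a was the one higher member, at 49.5 and 64.6 CPM against 36.3 and 37.6 CPM (0.71 ± 0.14). Hist1h2bc fell by 0.88 (adjusted p = 0.016, or 0.0943 without the library term).

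The same held when only cells of the S/G2 class were compared. Hist1h1b stood at 49.2 and 79.0 CPM in mid deuterosomal S/G2 cells against 779 and 1140 CPM in cycling S/G2 cells, with no overlap, and fell by 3.93 ± 0.21 on the log2 scale (adjusted p = 1.3e-12). Of 41 members tested 35 were lower and 0 higher, where 34.2% and 31.7% of all genes were. Hist1h2ae fell by 5.90 ± 0.28, Hist1h2ap by 5.46 and Hist1h1c by 1.98, whereas Hist3h2a, at 0.24, and Hist1h2be, at 0.14, did not pass the test. The S-phase marker list also differed between these cells, with 63.3 and 56.0 CPM in mid deuterosomal S/G2 cells against 1009 and 1175 CPM in cycling S/G2 cells. The G2 and M list stood at 1829 and 2099 CPM against 5327 and 6343 CPM. The part of these marker differences in the histone levels was not tested.

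Against resting progenitors the mid deuterosomal cells showed both directions. Of 51 members 6 were higher and 14 lower, where 38.9% and 33.2% of all genes were. Hist1h1b, at 47.4 and 78.8 CPM, was higher by 1.30 ± 0.28 (adjusted p = 8.7e-04), and Hist3h2a by 0.40 ± 0.11. Hist1h2ac (-1.79 ± 0.22), Hist3h2ba (-1.75 ± 0.19), Hist1h1c (-1.43 ± 0.25) and Hist1h2bc (-1.12 ± 0.26) were lower. The H4 gene Hist1h4j had 4 and 0 UMIs in mid deuterosomal cells against 110 and 24 in resting progenitors.

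**Figure D4:**
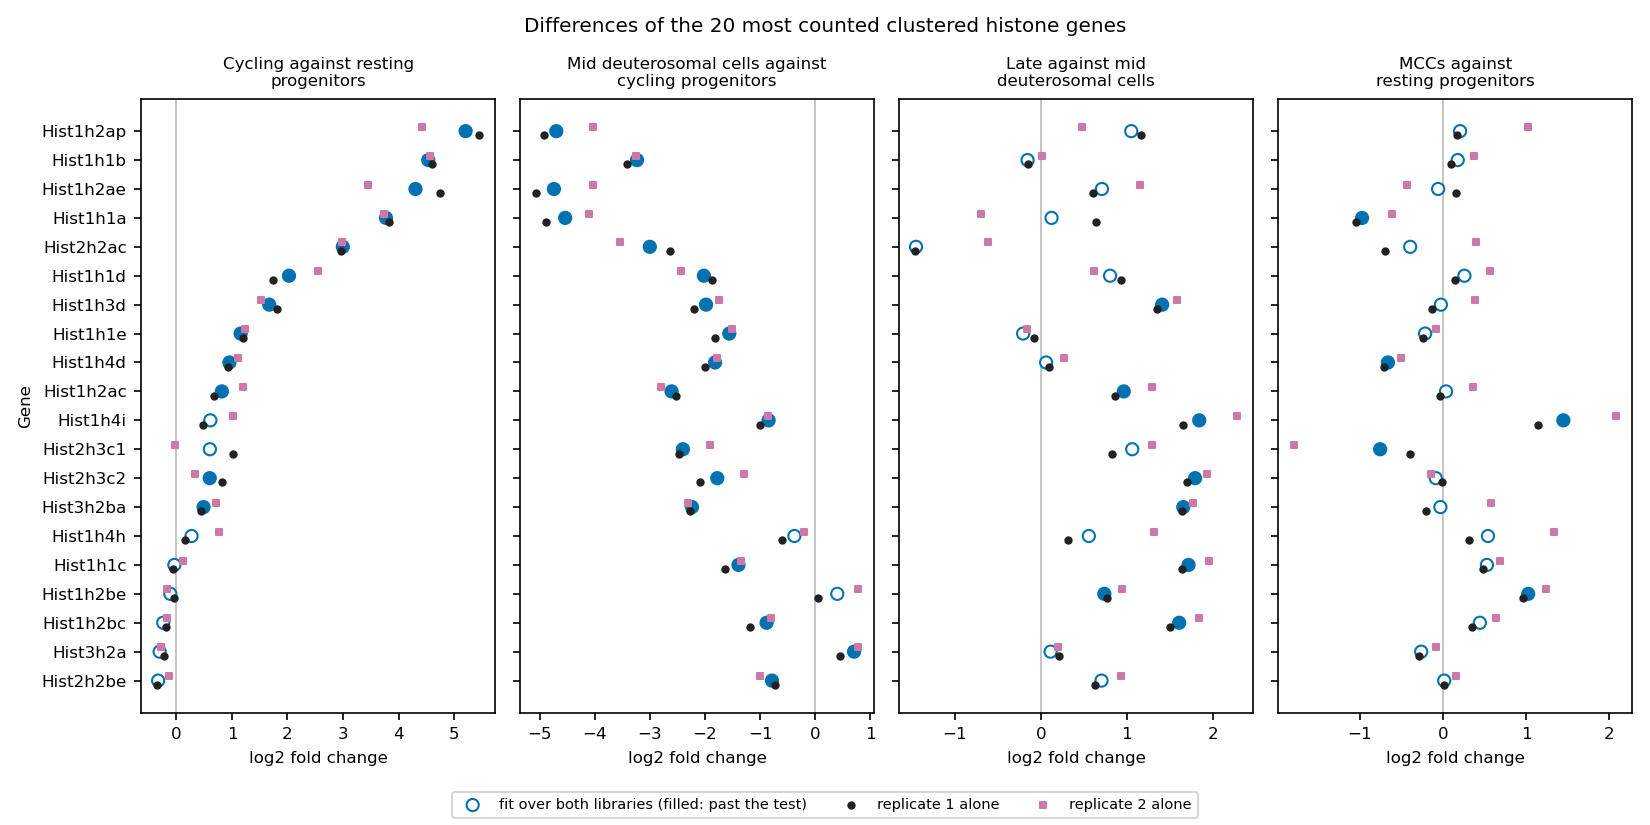
Log2 differences of the 20 members with most UMIs in 4 comparisons, with the fitted value (filled where it passed the test) and the value in each library alone. Hist1h1b, Hist1h2ae, Hist1h2ap and Hist1h1a lie far to the right for cycling against resting progenitors and far to the left for mid deuterosomal against cycling cells.

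Late deuterosomal cells were compared with mid deuterosomal cells after the levels by stage had been seen. Since the comparison was chosen for the low levels at the mid stage, its direction is partly fixed by that choice. Hist1h2bc went from 184 and 170 CPM to 524 and 608 CPM, a rise of 1.61 ± 0.29 on the log2 scale (adjusted p = 0.0014). Hist1h1c went from 48.7 and 60.7 CPM to 152 and 236 CPM (1.72 ± 0.29), and Hist1h4i from 23.8 and 16.4 CPM to 75.3 and 81.4 CPM (1.84 ± 0.32). The libraries of the 2 stages did not overlap for any of these 3 genes. All 3 are on the background list of polyadenylated forms. Hist1h2br (2.9986), Hist1h4j (2.7377), Hist1h3g (2.3752) and Hist2h4 (2.3233) are not on it, and they passed the test with larger rises from fewer counts. Absence from the list does not show that a member lacks such forms. Hist1h4j and Hist2h4 were annotated 385 and 1257 bases past the stem-loop, and Hist1h2br had transcripts of several exons. The listed Hist2h2aa1 was annotated only 35 bases past it. Hist1h2br had 41 and 31 UMIs in late against 5 and 13 in mid deuterosomal cells. For Hist1h4j these were 10 and 5 against 4 and 0. In all, 13 of 51 members were higher, 0 were lower and 38 did not pass, among them Hist1h2ae (0.71, adjusted p = 0.490) and Hist2h2be (0.71, adjusted p = 0.131), where 8.61% and 13.2% of all genes were. Of the 10 members on the background list 5 were higher, against 8 of the other 41. Without the library term 7 of the 13 passed, and Hist1h4i had an adjusted p of 0.0512.

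Multiciliated cells, in which no cell carried an S or G2/M class, stand at the end of the lineage. Against resting progenitors 3 H2B, 2 H4 and 1 H3 members were higher there. Hist1h2bp, an H2B gene, was higher than in resting progenitors by 2.38 ± 0.29 on the log2 scale (adjusted p = 1.7e-07), Hist1h4i by 1.45 ± 0.24 and Hist1h2be by 1.03 ± 0.13. Hist1h2be stood at 33.8 and 24.6 CPM against 14.6 and 7.84 CPM in progenitors I, with no overlap. The H3 gene Hist1h3g, one of the S-phase-linked members, stood at 0.65 and 0.63 CPM against 0.19 and 0.14 CPM in resting progenitors. Its levels in multiciliated cells rest on 20 and 3 UMIs. Hist1h1a, at -0.98, and Hist1h4d, at -0.66, were lower, but neither passed with DESeq2 (adjusted p = 0.0660 and 0.0840), nor did Hist1h1a without the library term (0.155) or in thinned cells (0.154). In all 6 members were higher and 5 lower of 51, where 28.7% and 28.0% of all genes were. Hist1h2bc (0.44, adjusted p = 0.137) and Hist1h1c (0.53, adjusted p = 0.0587) did not pass, but did with RLE factors, with only the compared populations and in thinned cells (adjusted p = 0.0323, 1.9e-06 and 0.0046 for Hist1h2bc and 0.0202, 8.4e-09 and 0.0016 for Hist1h1c). Hist1h2an had 0 and 0 UMIs in multiciliated cells against 4 and 11 in resting progenitors.

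**Figure D5:**
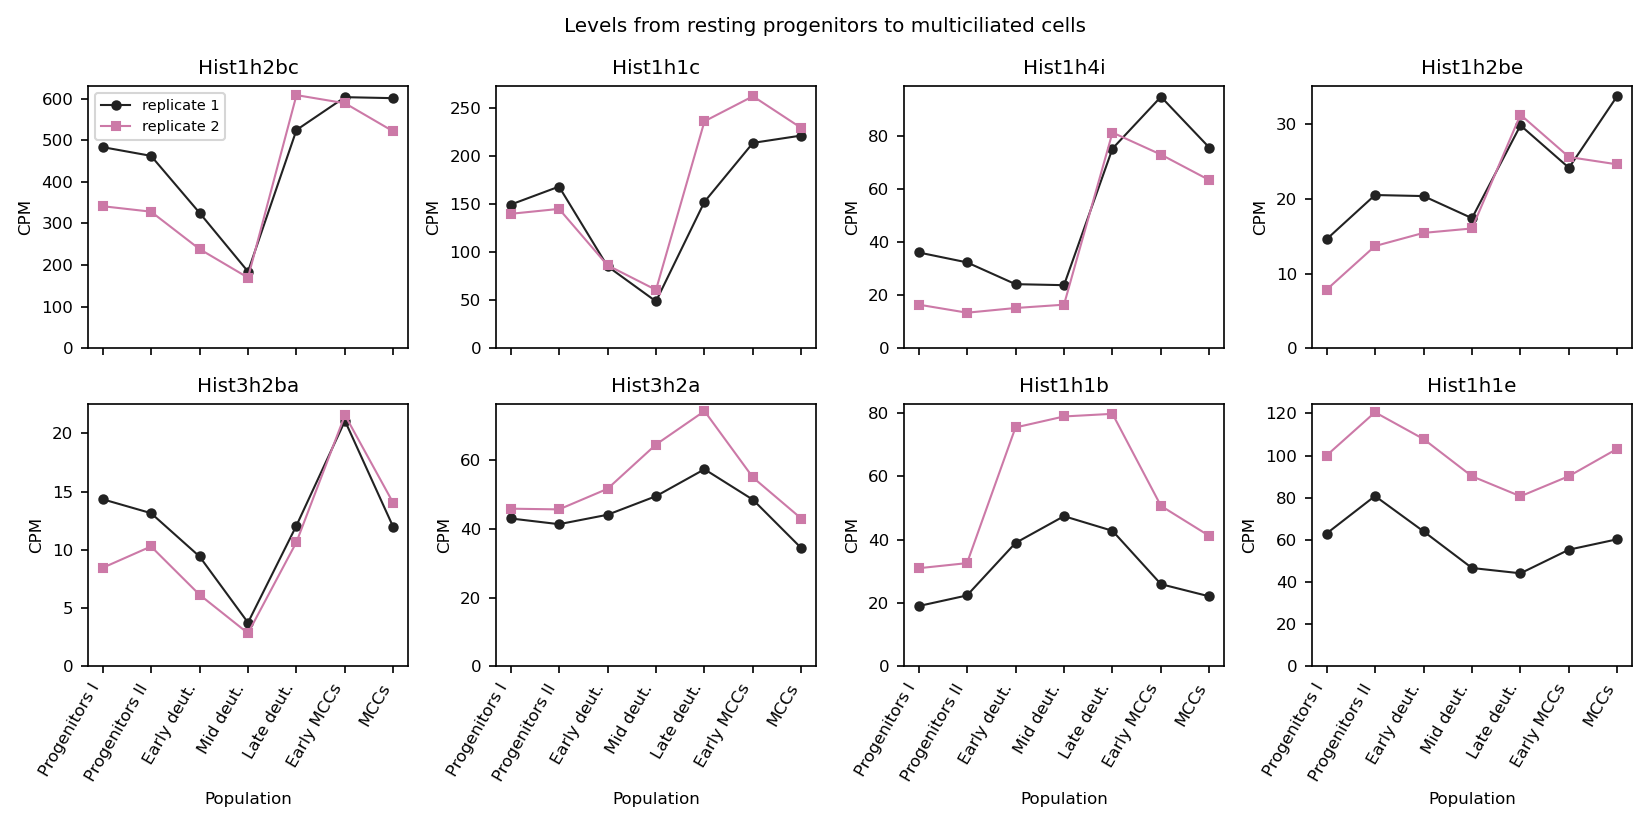
Level (CPM, from 0) of 8 members in the populations from progenitors I to multiciliated cells, with a line for each library. Hist1h2bc dips to 184 and 170 CPM in mid deuterosomal cells and reaches 524 and 608 CPM in late deuterosomal cells.

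Neuroblasts and OPCs, both outside the ependymal lineage and both holding S-class cells, were added after their levels had been seen. Hist3h2ba was higher than in cycling progenitors by 4.13 ± 0.17 on the log2 scale in neuroblasts (adjusted p = 2.4e-15) and by 2.66 ± 0.20 in OPCs. Of 51 members 18 were higher and 0 lower in neuroblasts, where 12.1% and 23.3% of all genes were, and 17 of the 18 were higher in each library alone; the exception was Hist1h3i. In OPCs 14 were higher and 2 lower, where 10.2% and 16.4% were. The lower 2 were Hist1h2bc, at 177 and 36.6 CPM (-1.83 ± 0.35), and Hist2h3c2. Hist1h1e was higher in both, by 1.17 ± 0.16 and 1.27 ± 0.16, and Hist1h1b in OPCs by 1.09 ± 0.31 (adjusted p = 0.019, or 0.173 without the library term). The share of cells in S or S/G2 was 37.0% and 41.5% in neuroblasts, and 67.6% and 100% in OPCs, of which replicate 2 held 34. Its part in these differences was not tested.

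Genes that make, carry or replace the clustered histones were read from 3 lists. Of 14 genes for histone message synthesis and processing, 10 were higher and 2 lower in cycling than in resting progenitors, and 12 were higher and 2 lower in mid deuterosomal than in resting cells, where 17.4% and 38.9% of all genes were higher in the respective comparisons. Slbp, whose protein binds the stem-loop, was higher by 1.69 and 0.33 on the log2 scale in these comparisons. Npat, the activator of histone transcription, was higher by 0.64 in cycling cells and lower, at -0.36, in mid deuterosomal cells. Of 19 histone chaperones 15 and 14 were higher and 1 and 2 lower, led by Asf1b at 5.66 and 4.38. Of 11 histone variants encoded outside the clusters 9 and 8 were higher and 0 and 3 lower, with Cenpa, the centromeric H3, at 5.90 and 4.64 and H2afx at 3.75 and 4.44. H1f0, a linker variant of non-dividing cells, was lower in mid deuterosomal than in resting cells, at -2.45. Both comparisons share the resting progenitors. Directly between mid deuterosomal and cycling cells, 28.6% of all genes were lower and 34.4% higher. There 11 of 19 chaperones were lower and 4 higher, and 7 of 14 genes of message synthesis and processing were lower and 4 higher. Of the 11 variants 4 were lower and 3 higher, which is near the shares of all genes. In that comparison Slbp fell by 1.36, Npat fell by 1.00 and H2afx was higher by 0.69.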

How the data were processed

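Single-cell RNA-seq data of 2 libraries were analysed from the authors' deposited table of UMI counts, in which each value is the whole number of transcripts of 1 gene in 1 cell, and from the deposited cell table of populations and cell cycle classes. The submitters' processing notes name Cell Ranger 3 and 5.0.1 and build mm10; neither the version used for each library nor the calling of doublets, populations and classes is stated in them. The authors' cell table also holds plot coordinates, scores that were not used. Counts were summed per library and population (13 populations; fibroblasts, with under 20 cells in 1 library, were left out of fits, as was any smaller set) or per library, population and class, and no cell was removed. CPM is the summed count over all UMIs of the set, scaled to 1e6. edgeR 4.0.16 (R 4.3.3) fitted a quasi-likelihood model with TMM factors, filterByExpr and the library as a block (12 residual degrees of freedom for populations and 18 for classes), and p-values were adjusted by Benjamini-Hochberg over all genes tested, with a threshold of 0.05. The block rests on sums of one library sharing its culture and run; over 78 pairs of populations the median correlation of their deviations was 0.184 and the lowest was -0.00168, so the numbers were taken as paired from the design. A CPM floor of 3 counts was 0.0173 in replicate 1 and 0.0425 in replicate 2 over a whole library. Stem-loops came from GENCODE vM21 transcripts and promoters from RefSeq (GRCm38.p6). Members named were the 20 with most UMIs and those past the test with a log2 difference of at least 1 in the same direction in each library, up to 5 per direction and comparison. Members, lists and comparisons were chosen with earlier results of these data known. Alternatives were DESeq2 1.42.0, other scaling factors, no filter, no library block, only the compared populations and cells thinned to 5000 UMIs. The fit was tested on simulated data.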

Additional observations from a re-analysis of the deposited data

Results flagged for a closer look

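Among the 20 members with most UMIs, 5 differed between the S and G0 classes in opposite directions in 2 populations. The difference ran one way in both libraries of cycling progenitors and the other way in both libraries of early deuterosomal cells. The share of all genes with such opposite signs was not measured, and the difference between the 2 populations was not tested. The mean log2 difference in cycling progenitors exceeded that in early deuterosomal cells by 3.16 for Hist1h1a, 1.15 for Hist1h1e and 1.08 for Hist1h2ac. It was -0.23 for Hist1h2be and -1.59 for Hist1h4h. For Hist1h1a the values were 3.15 and 2.70 in the libraries of cycling progenitors, against -0.16 and -0.32 in those of early deuterosomal cells. They rest on few counts, with 3 and 3 UMIs in cycling G0 cells and 4 and 7 in early deuterosomal S cells. Some opposite signs lie close to no difference, as for Hist1h2be with -0.26 and -0.07 against 0.03 and 0.10.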

How the results depend on the processing

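Of 1125 alternative values for named members 929 kept their direction and side of the threshold (or, for 1 library alone, moved less than the spread), 106 values of 1 library alone moved by more, 80 fell short of the threshold, 8 newly passed it and 2 changed sign. The changes of sign were those of Hist1h1c in cycling against resting progenitors, which did not pass the test in the main model (-0.04) or there (0.0338 with only the compared populations, 0.0414 in thinned cells); it was also 0.12 without replicate 1. Named members other than the 20 with most UMIs had been required to have the same direction in each library, so a stable sign there is no support. Without the replicate block fewer members passed: 1 rather than 5 lower in multiciliated cells, 7 rather than 13 higher in late deuterosomal cells, 5 rather than 8 higher in S than G1 and 3 rather than 9 lower in S than S/G2. In thinned cells 28 members (of 42 tested) were lower in mid deuterosomal than cycling cells, 17 (of 23 tested) in the S/G2 comparison, 8 were higher in late deuterosomal cells, and 1 each was lower in multiciliated cells, neuroblasts and OPCs. With DESeq2 0 were lower in multiciliated cells and 1 in OPCs, and 1 was lower in cycling than resting progenitors. With RLE factors 3 were lower in multiciliated cells, 1 was lower in cycling than resting progenitors and 1 higher in the S/G2 comparison, and with no filter the last 2 counts were also 1 and 1. With only the compared populations 2 were lower in cycling than resting progenitors, 3 higher in mid deuterosomal than resting cells, 1 lower in late deuterosomal cells, 1 lower in neuroblasts and 0 lower in OPCs. A fold of 1.5 gave 4 differentiation-linked members and a fold of 3 gave 1. Except for the thinned fits, which tested fewer members, the cause was not tested. With 1 library left out no residual degrees of freedom among replicates remain, so no test was made.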
